A study of Mus musculus with 9 samples.

Results

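The 9 genes described here are Trp53, which encodes the transcription factor p53, its regulator Mdm2, the p53 target genes Cdkn1a and Ccng1, the further cyclin-dependent kinase inhibitor genes Cdkn1b, Cdkn2a and Cdkn2b, and the genes of the secreted factors Gdf15 and Igfbp7. They were picked by name as genes of the p53 pathway and of cellular senescence, not blind to earlier results of these data, and all 9 were found among the 55385 genes of the deposited table. RNA was measured by sequencing of poly(A) RNA from kidneys of C57BL/6 mice, with 3 libraries in each of 3 groups. Control mice had no kidney disease and no treatment. HN mice had hyperuricemic nephropathy, a kidney injury from excess uric acid, which was induced with 0.16 g/kg of adenine and 2.4 g/kg of the uricase inhibitor potassium oxonate, given on alternate days for 4 weeks. PEC mice had the same disease and were given the plant flavonoid pectolinarigenin by mouth each day over the same 4 weeks. The dose of 25 mg/kg comes from the study, which used male C57BL/6J mice that were 8 to 10 weeks old, and the labels give no dose. All 9 titles, those of Control included, carry the words HN mice, and the groups were taken from the disease state and the treatment. Which mouse a library came from is not stated in the labels, so that p-values measure the spread between these libraries.

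The p53 protein is kept scarce in resting cells by Mdm2, a ubiquitin ligase that marks it for destruction and whose own gene p53 switches on, so that the loop restrains itself. In stressed cells p53 is released, mainly at the level of the protein, and activates genes that stop the cell cycle, repair DNA or lead to apoptosis, among them Cdkn1a, which encodes the kinase inhibitor p21. Cells that stay arrested may turn senescent, a state known for p16 and p15, the products of Cdkn2a and Cdkn2b, and for a mixture of secreted cytokines, proteases and growth factor binding proteins, and tubular cells in this state are known from injured and ageing kidneys.

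Promoter windows of all 9 genes were taken from RefSeq (GRCm38.p6), from 250 bases before to 50 bases after a start of transcription. Cdkn1a, Cdkn2a and Gdf15 have a window at each of 2 starts, which gives 12 windows. They were searched on both strands for the p53 decamer consensus and for a pair of CATG letters with 6 bases between them, the spacing of the cores of 2 adjoining decamers. The former was found in 8.36% and the latter in 0.712% of all 32851 windows of the reference table, and the 2 motifs overlap where a decamer holds the first core. The windows below are those with a match, in capitals, and 1 window each of Cdkn2b and Gdf15, which had no match and were called both in HN against Control and in PEC against HN.
Cdkn1a, upstream start, chr17:29090729-29091028, plus strand: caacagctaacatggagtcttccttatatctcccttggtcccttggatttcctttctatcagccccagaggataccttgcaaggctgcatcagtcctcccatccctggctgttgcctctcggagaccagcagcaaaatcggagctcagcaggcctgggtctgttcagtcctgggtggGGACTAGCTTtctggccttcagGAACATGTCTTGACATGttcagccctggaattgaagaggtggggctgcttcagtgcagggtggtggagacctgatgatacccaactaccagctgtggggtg
Trp53, chr11:69580109-69580408, plus strand: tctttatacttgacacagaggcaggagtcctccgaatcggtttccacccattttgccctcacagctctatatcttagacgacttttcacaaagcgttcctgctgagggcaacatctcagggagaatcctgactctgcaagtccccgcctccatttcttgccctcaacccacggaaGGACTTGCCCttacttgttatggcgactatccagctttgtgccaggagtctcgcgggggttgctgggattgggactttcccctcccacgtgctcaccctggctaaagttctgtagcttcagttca
Mdm2, chr10:117710709-117711008, minus strand: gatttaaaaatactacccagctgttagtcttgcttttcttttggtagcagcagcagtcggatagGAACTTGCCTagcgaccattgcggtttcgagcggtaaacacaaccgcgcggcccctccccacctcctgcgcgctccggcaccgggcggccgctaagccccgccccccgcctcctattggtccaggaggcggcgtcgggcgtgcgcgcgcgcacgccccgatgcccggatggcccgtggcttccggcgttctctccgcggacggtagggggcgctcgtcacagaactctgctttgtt
Ccng1, chr11:40755237-40755536, minus strand: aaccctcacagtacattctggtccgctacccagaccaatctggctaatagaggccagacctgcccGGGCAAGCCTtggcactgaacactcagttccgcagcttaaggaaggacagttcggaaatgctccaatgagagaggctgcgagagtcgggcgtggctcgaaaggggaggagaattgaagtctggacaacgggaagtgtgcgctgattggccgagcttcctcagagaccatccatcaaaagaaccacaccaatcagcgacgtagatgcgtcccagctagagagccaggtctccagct
Cdkn2b, chr4:89310983-89311282, minus strand: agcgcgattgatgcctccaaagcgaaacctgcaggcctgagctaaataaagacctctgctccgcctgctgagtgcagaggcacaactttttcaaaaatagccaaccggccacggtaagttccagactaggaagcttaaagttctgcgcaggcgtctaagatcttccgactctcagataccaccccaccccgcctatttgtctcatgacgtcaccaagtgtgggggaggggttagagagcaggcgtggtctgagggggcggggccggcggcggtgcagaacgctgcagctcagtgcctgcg
Gdf15, upstream start, chr8:70632407-70632706, minus strand: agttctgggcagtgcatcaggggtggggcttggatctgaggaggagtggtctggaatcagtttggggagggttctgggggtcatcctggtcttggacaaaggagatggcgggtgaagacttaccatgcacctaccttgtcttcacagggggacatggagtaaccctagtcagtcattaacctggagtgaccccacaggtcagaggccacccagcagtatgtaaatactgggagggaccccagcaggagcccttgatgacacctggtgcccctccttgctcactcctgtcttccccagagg
The window at the upstream Cdkn1a start was the only one of the 12 with the paired cores, CATGTCTTGACATG, which began at -48 from the start. It held 2 decamers, GGACTAGCTT and GAACATGTCT. Trp53, Mdm2 and Ccng1 had 1 decamer each, beginning at -75, -186 and -185 from the start. The other 8 windows, among them those of Cdkn1b, Cdkn2a, Cdkn2b, Gdf15 and Igfbp7, had neither motif. A match describes the letters of these windows, and no binding was measured here. Elements that lie elsewhere, such as the known p53 elements inside the Mdm2 gene, are outside them.

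Total counts were 75320528, 74965874 and 78459183 in Control replicates 2, 4 and 5, 74315544, 81069646 and 74212324 in HN replicates 4, 8 and 12, and 74397038, 65583215 and 57714111 in PEC replicates 1, 2 and 3. Mitochondrial genes took 12.9% to 16.3% of the counts in Control, 6.01% to 6.34% in HN and 10.3% to 13.6% in PEC libraries. Nuclear ribosomal RNA loci took 0.117%, 0.682% and 0.119% of the counts in the PEC libraries and at most 0.00283% in any other library, so that the PEC libraries stood apart in this respect. A fit without mitochondrial and ribosomal RNA genes changed 1 call among the 9 genes, that of Ccng1 in PEC against HN. Such a fit only takes out the counts of these genes. The mark coincides with the treatment, so that an effect of PEC cannot be told apart from a difference in how these libraries were made. The unit FPKM is the number of fragments set against gene length and against the library total, and it is scaled by that total alone. TMM, the scaling used for the tests, sets libraries to a level at which most genes do not differ, and its factors were 0.778 to 0.832 in Control, 1.15 to 1.22 in HN and 1.02 to 1.05 in PEC libraries. Scaling by total count moved the median log2 fold change of all 21392 tested genes from -0.0008 to 0.56 between HN and Control, from -0.015 to -0.21 between PEC and HN, and from 0.045 to 0.40 between PEC and Control. FPKM values of HN libraries are therefore read against this shift, and the fold changes below are those after TMM unless total-count scaling is named.

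All 9 genes passed the filter on low counts. A gene was called where edgeR gave a fold change of at least 1.5 and a p of at most 0.05 after Benjamini-Hochberg adjustment over all tested genes. In HN against Control, Trp53, Cdkn2a, Cdkn2b and Gdf15 were called higher, 4 of the 9, where 17.7% of all tested genes were called higher. None of the 9 was called lower (14.7% of all tested genes), and the count was also 0 with an unadjusted p and with DESeq2. In PEC against HN, Ccng1, Cdkn2b and Gdf15 were called lower, 3 of 9 beside 15.3% of all tested genes. The count of higher genes was 0 there, with an unadjusted p and with DESeq2 as well, beside 13.4% of all tested genes. In PEC against Control, Trp53 was the 1 gene called higher (18.9% of all tested genes) and Ccng1 the 1 called lower (17.4%). HN libraries enter the first and the second comparison, and Control libraries the first and the third, so that the comparisons are not independent of each other. With total-count scaling, 7 of the 9 genes and 7708 of all 21392 tested genes were called higher in HN than in Control, with Cdkn1a, Cdkn1b and Igfbp7 added. Of all genes called between HN and Control, 54.5% were higher after TMM and 85.7% with total-count scaling, and between PEC and HN the shares were 46.8% and 29.6%, between PEC and Control 52.1% and 76.6%. An exact permutation test of 3 against 3 libraries cannot go below a p of 0.10, so that the tests rest on the spread shared across genes.

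**Figure D1:**
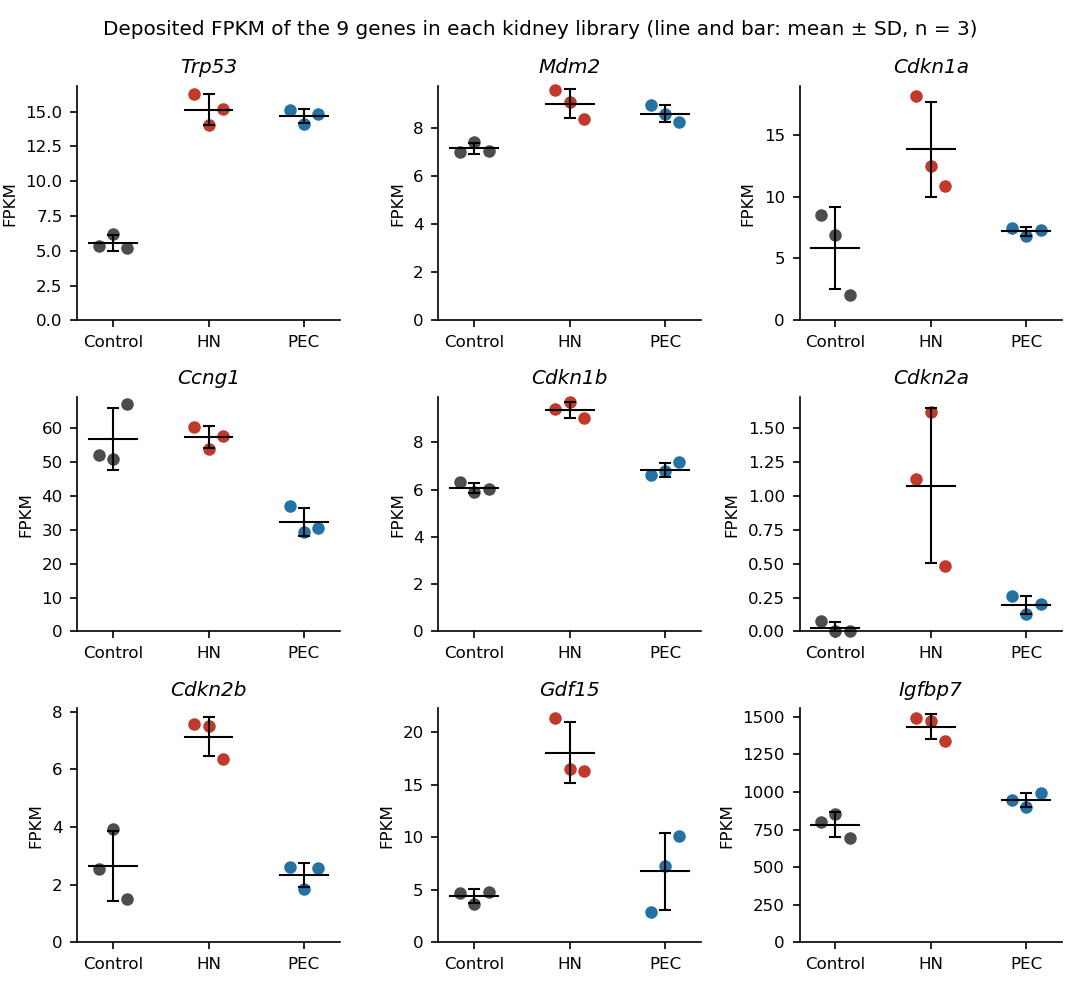
Deposited FPKM (vertical axes, from 0) of the 9 genes in each library of the Control, HN and PEC groups, with the mean and SD of 3 libraries as line and bar. Trp53 stood at 14.01 FPKM or more in every HN and PEC library, whereas Cdkn2b and Igfbp7 were lower in every PEC than in every HN library.

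Trp53 (ENSMUSG00000059552, chromosome 11 of GRCm38, 69580359 to 69591873) had 5.32, 6.23 and 5.17 FPKM in Control replicates 2, 4 and 5. In HN replicates 4, 8 and 12 it had 16.3, 14.01 and 15.2 FPKM, and in PEC replicates 1, 2 and 3 it had 15.1, 14.1 and 14.8 FPKM. Every HN and PEC library was thus above every Control library, and the HN and PEC libraries overlapped. The log2 fold change was 0.91 (SE 0.10, edgeR adjusted p = 9.29e-05) in HN against Control and 1.08 (SE 0.10, edgeR adjusted p = 4.32e-05) in PEC against Control. Between PEC and HN it was 0.17 (SE 0.10, edgeR adjusted p = 0.204) after TMM and -0.03 with total-count scaling, and the gene was not called. Both calls against Control were also made with each library left out in turn.

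Mdm2 (ENSMUSG00000020184, chromosome 10, 117688875 to 117710758), the ligase that restrains p53, had 7.00, 7.42 and 7.02 FPKM in the Control libraries, in the order of replicates given above. HN libraries had 9.55, 9.09 and 8.35 FPKM, and PEC libraries 8.94, 8.57 and 8.24 FPKM. On the FPKM scale the Control libraries were the lowest, and HN and PEC overlapped. After TMM the order turned, with a log2 fold change of -0.20 (SE 0.09, edgeR adjusted p = 0.104) in HN against Control, against 0.36 with total-count scaling. Mdm2 was not called in any of the 3 comparisons with either scaling, and its log2 fold change after TMM was 0.15 (SE 0.09) in PEC against HN and -0.05 (SE 0.09) in PEC against Control.

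In the lists below, the most abundant gene is the one with the highest mean FPKM over all 9 libraries. Of 18 regulators of p53, among them damage kinases, acetyltransferases and the Mdm2 partner Mdm4, 17 were tested. In HN against Control, 2 were called higher (17.7% of all tested genes) and 15 were not called, and the list's median log2 fold change was 0.10, beside -0.0008 over all tested genes. The kinases that relay DNA damage, Chek1 and Chek2, were the higher ones, with log2 fold changes of 1.83 (SE 0.46, edgeR adjusted p = 0.0106) and 0.77 (SE 0.18, edgeR adjusted p = 0.0078). In PEC against HN, 2 were higher and 5 lower (13.4% and 15.3% of all tested genes), with a median of -0.28 beside -0.015 over all tested genes. After a spline of transcript length and GC content was removed from each library, 2 were higher and 3 lower, beside 2697 and 2588 of the 21358 genes of that fit, and the median was -0.0334, beside -0.0076. Atm, the kinase that senses double-strand breaks, had 2.25, 2.77 and 2.4 FPKM in HN and 0.41, 0.46 and 0.24 FPKM in PEC libraries, below the 1.44 to 1.53 FPKM of Control. Its log2 fold change in PEC against HN was -2.51 (SE 0.22, edgeR adjusted p = 6.99e-05). Hipk2, a kinase that activates p53, fell by 2.29 (SE 0.17), Trp53inp1 by 1.40 (SE 0.14) and Atr, the kinase of stalled replication, by 0.99 (SE 0.09) on the log2 scale. Mdm4, which holds p53 inactive, had 2.64 to 2.91 FPKM in Control, 4.32 to 4.95 in HN and 6.33 to 8.14 in PEC libraries, so that no groups overlapped. The rise in PEC against HN was 0.83 on the log2 scale (SE 0.10, edgeR adjusted p = 0.000276). The acetyltransferase Kat5 was called higher in PEC against HN at 0.60 (SE 0.18). Usp7, a deubiquitinase of Mdm2 and p53 and the most abundant gene of the list, was not called in either comparison. With length and GC content removed, the falls became -1.81 for Atm, -2.00 for Hipk2, -0.65 for Trp53inp1 and -0.20 for Atr, and the rise of Mdm4 became 1.45. Atr and Kat5 (0.32) were then not called, and Hipk2 was called lower in HN against Control as well (-0.65, from -0.50). Kat5 was not called with total-count scaling (0.40) either, nor when any HN library, PEC replicate 2 or PEC replicate 3 was left out.

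Cdkn1a (ENSMUSG00000023067, chromosome 17, 29090976 to 29100727) had 8.51, 6.92 and 2.09 FPKM in Control, 18.1, 12.5 and 10.8 FPKM in HN, and 7.48, 6.80 and 7.33 FPKM in PEC libraries. All HN libraries were above the rest, and Control replicate 5 was the lowest of all 9, at less than the 6.80 FPKM of the lowest PEC library. After TMM, HN and Control overlapped. The log2 fold change was 0.73 (SE 0.42, edgeR adjusted p = 0.197) in HN against Control, -0.73 (SE 0.42, edgeR adjusted p = 0.198) in PEC against HN and 0.0009 (SE 0.41) in PEC against Control, and none was called. The spread within Control entered these tests. Without Control replicate 5, the fall in PEC against HN kept its log2 fold change of -0.73 and was called at an edgeR adjusted p of 0.0233, as it was with only the HN and PEC libraries in the fit (0.0306). The value in HN against Control without that library was 0.34. With each library left out in turn, the log2 fold change ranged from -0.89 to -0.46 in PEC against HN. In HN against Control it ranged from 0.34 to 1.11. With total-count scaling the rise in HN was 1.26 on the log2 scale (edgeR adjusted p = 0.0318) and was called. A gene model of unknown function on the opposite strand overlaps Cdkn1a, and strand use in the counting is not given in the sources used here, so that reads of the 2 cannot be told apart.

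Cdkn1b (ENSMUSG00000003031, chromosome 6, 134920401 to 134925513) encodes p27, an inhibitor of G1 kinases that is known to be set mainly by protein turnover. It had 6.31, 5.92 and 6.01 FPKM in Control, 9.40, 9.72 and 9.03 FPKM in HN, and 6.6, 6.77 and 7.17 FPKM in PEC libraries. The FPKM of the 3 groups did not overlap, with HN the highest. Most of this followed the scaling, since the log2 fold change in HN against Control was 0.65 with total-count scaling and 0.09 (SE 0.08, edgeR adjusted p = 0.407) after TMM. For PEC against HN it was -0.24 (SE 0.08, edgeR adjusted p = 0.0449), which is short of the fold change for a call, and 0.20 once length and GC content were removed.

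Cdkn2a (ENSMUSG00000044303, chromosome 4, 89274471 to 89294653) encodes p16 and, from another first exon, p19Arf, a protein that binds Mdm2. The counts are per gene and do not tell the transcripts apart. Control libraries held 8, 0 and 0 counts, HN libraries 109, 171 and 47, and PEC libraries 27, 12 and 16. A count of 0 allows up to 3 counts, or 0.0307 and 0.0294 FPKM in Control replicates 4 and 5, against 0.48 to 1.62 FPKM in HN and 0.13 to 0.26 FPKM in PEC libraries. The groups did not overlap, with HN the highest and Control the lowest, and Cdkn2a was the least abundant of the 9 genes in every library. The log2 fold change in HN against Control was 4.72 (SE 1.10, edgeR adjusted p = 0.00737), measured against 8 counts in all of Control. Between PEC and HN it was -2.15 (SE 0.92, edgeR adjusted p = 0.0946) and in PEC against Control 2.57 (SE 1.08, edgeR adjusted p = 0.0806), and neither was called. DESeq2 called both, at DESeq2 adjusted p-values of 0.0395 and 0.024. Both were called by edgeR as well without Control replicate 2, which held all 8 counts of Control, so that the fold against Control then has no finite size.

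Cdkn2b (ENSMUSG00000073802, chromosome 4, 89306299 to 89311039) lies beside Cdkn2a and encodes p15, an inhibitor of Cdk4 and Cdk6 that is known to be induced by transforming growth factor beta. It had 2.54, 3.92 and 1.49 FPKM in Control, 7.56, 7.49 and 6.35 FPKM in HN, and 2.6, 1.84 and 2.57 FPKM in PEC libraries. Every HN library was above every other library, and PEC lay within the range of Control. The log2 fold change was 0.91 (SE 0.30, edgeR adjusted p = 0.0393) in HN against Control and -1.39 (SE 0.31, edgeR adjusted p = 0.00676) in PEC against HN. The fall was called with each library left out in turn. The rise was not called without Control replicate 2 (edgeR adjusted p = 0.0996), Control replicate 5 (0.0765), or HN replicate 4 (0.102), 8 (0.0938) or 12 (0.0565). In PEC against Control the log2 fold change was -0.49 (SE 0.30, edgeR adjusted p = 0.221), and it was called at -0.76 without Control replicate 5 and at -0.79 after removal of length and GC content. Over the left-out libraries it ranged from -0.76 to -0.12, and it was -0.14 with total-count scaling.

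**Figure D2:**
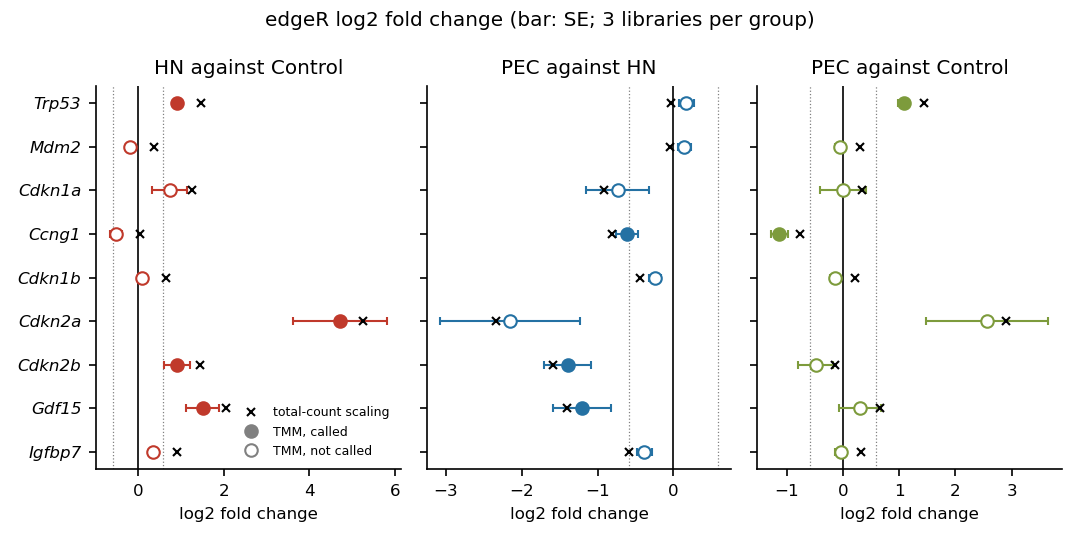
Log2 fold change of the 9 genes (horizontal axes) from edgeR after TMM, with SE as bars, in the 3 comparisons; filled circles are called, open circles are not, crosses show total-count scaling and dotted lines a fold change of 1.5. In HN against Control every cross lies to the right of its circle, and the circle and the cross of Mdm2 are at -0.20 and 0.36.

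Ccng1 (ENSMUSG00000020326, chromosome 11, 40748552 to 40755311) encodes cyclin G1, a p53 target known to recruit a phosphatase to Mdm2. It had 52.1, 50.9 and 67.4 FPKM in Control, 60.6, 54.02 and 57.8 FPKM in HN, and 37.1, 29.5 and 30.5 FPKM in PEC libraries. All PEC libraries were below the other 6, while HN and Control overlapped in FPKM. After TMM, every HN library was below every Control library. The log2 fold change was -1.13 (SE 0.15, edgeR adjusted p = 0.000279) in PEC against Control and -0.61 (SE 0.15, edgeR adjusted p = 0.00982) in PEC against HN. In HN against Control it was -0.52 (SE 0.15, edgeR adjusted p = 0.0185) after TMM, short of a fold change of 1.5, and 0.04 with total-count scaling. It was called there without Control replicate 2 (-0.59), Control replicate 4 (-0.61) or HN replicate 4 (-0.59). Across all left-out libraries this value ranged from -0.61 to -0.35. The fall in PEC against HN was close to the threshold and was not called without HN replicate 4 (-0.55), PEC replicate 2 (-0.55) or PEC replicate 3 (-0.55), nor without mitochondrial and ribosomal RNA genes (-0.58). After removal of length and GC content it was -0.22 (limma adjusted p = 0.215), and the fall in PEC against Control was -0.73 (limma adjusted p = 0.0016).

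Further p53 target genes were taken as 3 lists. Of 16 genes of growth arrest and DNA repair, 10 were called higher and 1 lower in HN against Control (17.7% and 14.7% of all tested genes), with a median log2 fold change of 1.01 beside -0.0008 over all tested genes. Sfn, which encodes 14-3-3 sigma and had the highest mean of them in HN and PEC but not in Control libraries, had 7.39, 5.54 and 3.59 FPKM in Control, 54.4, 44.3 and 51.9 FPKM in HN, and 31.3, 28.1 and 27.6 FPKM in PEC libraries. No groups overlapped, and the log2 fold change was 2.66 (SE 0.22, edgeR adjusted p = 2.16e-05) in HN against Control. Eda2r, a receptor of the tumour necrosis factor family, rose by 2.86 (SE 0.38), and the mitotic genes Psrc1 and Ckap2 by 2.91 (SE 0.50) and 2.60 (SE 0.41) on the log2 scale. Psrc1 ranged from 2.56 to 3.85 with 1 library left out, the highest being without Control replicate 5. Rrm2b, the p53-induced subunit of ribonucleotide reductase, fell by 0.70 (SE 0.14), a fall of 0.14 with total-count scaling. With PEC, 3 of the 16 were called lower against HN (15.3% of all tested genes) and 13 were not called (median -0.36). Eda2r fell by 1.96 (SE 0.36, edgeR adjusted p = 0.0027), Rrm2b by 0.88 (SE 0.14) and the Akt inhibitor Phlda3 by 0.65 (SE 0.19) on the log2 scale, the last of these not being called when any HN library, PEC replicate 1 or PEC replicate 2 was left out. After removal of length and GC content, Rrm2b (-0.28) and Phlda3 (-0.58) were not called, and 4 of the 16 were lower, beside 2588 of 21358 genes, among them Eda2r and newly Sfn (-0.73). In PEC against Control, 8 of the 16 were called higher and 2 lower (18.9% and 17.4% of all tested genes), not all of them genes called in HN against Control.

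Of 10 apoptosis genes among the p53 targets, 3 were called higher and 2 lower in HN against Control (17.7% and 14.7% of all tested genes), with a median of 0.26. Bbc3, which encodes the killer protein PUMA, had 1.49, 1.18 and 0.81 FPKM in Control, 6.30, 6.15 and 4.77 FPKM in HN, and 1.33, 1.38 and 0.89 FPKM in PEC libraries. Every HN library was thus above the rest, and PEC and Control overlapped. Its log2 fold change was 1.78 (SE 0.26, edgeR adjusted p = 0.000534) in HN against Control and -2.03 (SE 0.26, edgeR adjusted p = 0.000405) in PEC against HN. Apaf1, the scaffold of the apoptosome, rose by 1.21 (SE 0.20) in HN and stood lower in PEC than in HN by 2.68 (SE 0.21) and lower than in Control by 1.47 (SE 0.20) on the log2 scale. The death receptor gene Tnfrsf10b rose by 1.58 (SE 0.28). Perp and Ei24 were called lower in HN at -0.63 (SE 0.10) and -0.62 (SE 0.10), and were at -0.07 and -0.05 with total-count scaling. Neither was called after removal of length and GC content (-0.56 and -0.58). Pidd1, a death domain gene, was the 1 gene called higher in PEC against HN, at 0.73 (SE 0.23), beside 13.4% of all tested genes. It was not called with total-count scaling (0.53), nor without HN replicate 4 (0.61), HN replicate 12 (0.73), PEC replicate 1 (0.58) or PEC replicate 3 (0.77). Bbc3 and Apaf1 were the 2 called lower there (15.3% of all tested genes), and the median of the 10 was -0.0022.

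Of 12 p53 targets of metabolism and stress, 5 were called higher and 1 lower in HN against Control (17.7% and 14.7% of all tested genes), with a median of 0.45. The lower gene, Sesn2, was at -0.06 with total-count scaling, without a call. Nor was it called without Control replicate 2 (-0.47), HN replicate 8 (-0.55) or HN replicate 12 (-0.56). Dram1, 1 of the 5 higher genes, was not called without Control replicate 5 (edgeR adjusted p = 0.0735), HN replicate 4 (0.0788) or HN replicate 8 (0.0581). Ddit4, an inhibitor of mTOR signaling, had 9.54 to 17.0 FPKM in Control, 41.6 to 66.7 in HN and 23.2 to 26.5 in PEC libraries, and rose by a log2 fold change of 1.53 (SE 0.25, edgeR adjusted p = 0.00109). The ferrireductase gene Steap3 had 0.81 to 1.14 FPKM in Control, 3.22 to 3.74 in HN and 0.51 to 0.56 in PEC libraries. In neither gene did any groups overlap, and with PEC Steap3 lay below Control while Ddit4 lay between Control and HN. Against HN, 1 of the 12 was called higher and 3 lower in PEC libraries (13.4% and 15.3% of all tested genes). Steap3 fell by 2.51 (SE 0.17, edgeR adjusted p = 2.93e-05), Ddit4 by 0.86 (SE 0.25) and Sesn1, a stress-induced inhibitor of mTOR signaling, by 0.72 (SE 0.12) on the log2 scale, and Fdxr, an electron donor of mitochondrial enzymes, was called higher at 0.61 (SE 0.13). The fall of Ddit4 was not called without HN replicate 4 (-0.62, edgeR adjusted p = 0.0855), PEC replicate 1 (0.0699) or PEC replicate 2 (0.0538). Fdxr was at 0.42 with total-count scaling and at 0.53 after removal of length and GC content, without a call. The most abundant gene, the peroxidase gene Gpx1, ranged from 398 to 1225 FPKM within Control and was not called.

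**Figure D3:**
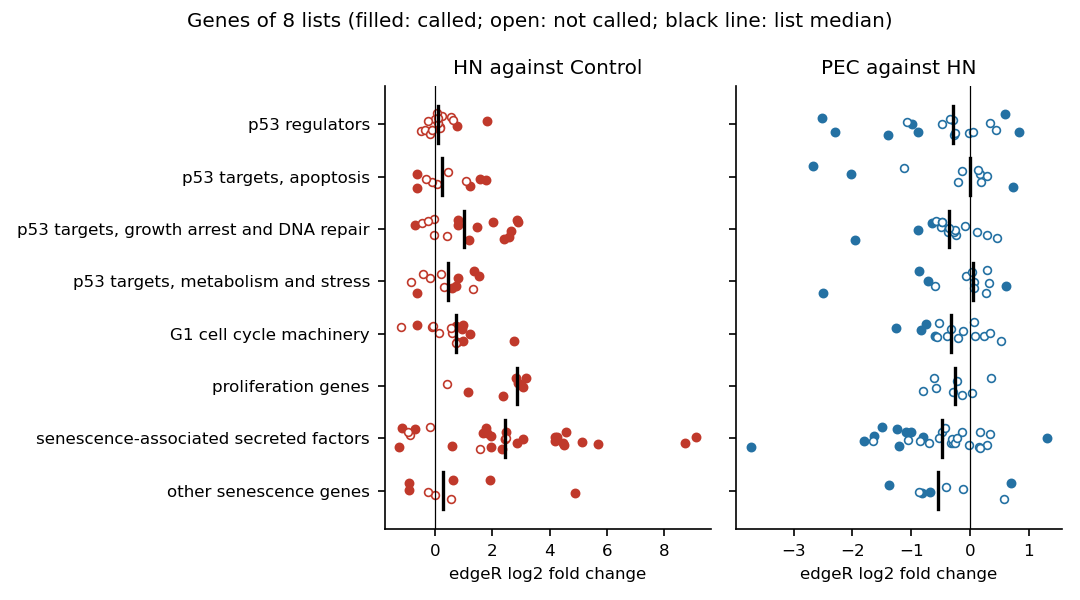
Log2 fold change from edgeR (horizontal axes) of the tested genes in 8 lists, for HN against Control (left) and PEC against HN (right); filled points were called, open points were not, and the black line is the median of the list. Proliferation genes and secreted factors had the highest medians in HN against Control, 2.86 and 2.43, and medians of -0.25 and -0.48 in PEC against HN.

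In G1 the kinases inhibited by p21, p27, p16 and p15 act with cyclins of the D and E types. Of 15 genes of this machinery, 7 were called higher and 1 lower in HN against Control (17.7% and 14.7% of all tested genes), with a median of 0.72. Ccne1, a cyclin of the E type, rose by a log2 fold change of 2.75 (SE 0.37, edgeR adjusted p = 0.000357), E2f1, the transcription factor of the S phase, by 1.22 (SE 0.23) and Ccnd2 by 0.97 (SE 0.17). Ccnd1, the most abundant, had 21.7 to 31.3 FPKM in Control, 32.0 to 40.02 in HN and 26.02 to 41.8 in PEC libraries and was not called. Rbl2, a relative of the retinoblastoma gene, was called lower at -0.64 (SE 0.10), and was at -0.08 with total-count scaling. With PEC, 4 of the 15 were called lower against HN (15.3% of all tested genes) and 11 were not called (median -0.32). After removal of length and GC content none of these 4 was called, and 1 other gene of the list was lower, beside 2588 of 21358 genes. Of 8 proliferation genes, 7 were called higher in HN against Control (17.7% of all tested genes) and also 7 in PEC against Control (18.9%), with medians of 2.86 and 2.34. The mitotic kinase gene Cdk1 had 0.07, 0.09 and 0.20 FPKM in Control, 1.57, 1.69 and 1.63 FPKM in HN, and 1.52, 1.52 and 1.28 FPKM in PEC libraries. HN and PEC libraries were all above Control, and its log2 fold change was 3.17 (SE 0.38, edgeR adjusted p = 0.000169) in HN and 3.21 (SE 0.38, edgeR adjusted p = 0.000163) in PEC against Control. Mki67, whose product Ki-67 marks cycling cells, rose by 3 (SE 0.43) and 2.21 (SE 0.42) on the log2 scale. Without Control replicate 5, which had the highest Control values of both genes, the 2 values were 3.82 and 3.86 for Cdk1 and 3.68 and 2.89 for Mki67. Between PEC and HN, edgeR called 0 of the 8 (13.4% higher and 15.3% lower of all tested genes), also with an unadjusted p, and DESeq2 called 0. After removal of length and GC content 1 of the 8, Pcna, was called lower (-0.71), beside 2588 of 21358 genes. Transcripts of the arrest genes Cdkn2a and Cdkn2b and of proliferation genes were thus both raised in HN libraries, and bulk tissue does not show whether the same cells held them.

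Gdf15 (ENSMUSG00000038508, chromosome 8, 70629393 to 70632456) encodes a stress-induced cytokine of the transforming growth factor beta superfamily. It had 4.75, 3.66 and 4.79 FPKM in Control, 21.4, 16.5 and 16.3 FPKM in HN, and 2.88, 7.27 and 10.2 FPKM in PEC libraries. All HN libraries were above the rest, and the PEC libraries spread from below the lowest to above the highest Control library. The log2 fold change was 1.5 (SE 0.38, edgeR adjusted p = 0.0115) in HN against Control, and this call was made with each library left out in turn. Between PEC and HN it was -1.21 (SE 0.38, edgeR adjusted p = 0.0325). That call was lost without HN replicate 4 (edgeR adjusted p = 0.102), HN replicate 8 (0.0593), HN replicate 12 (0.0534) or PEC replicate 2 (0.0657), and with only the HN and PEC libraries in the fit (0.0606). In PEC against Control it was 0.30 (SE 0.38, edgeR adjusted p = 0.549), and without PEC replicate 1 it was 0.66 and called (edgeR adjusted p = 0.0392).

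Igfbp7 (ENSMUSG00000036256, chromosome 5, 77349240 to 77408041), a secreted protein linked to senescence that is measured in urine as a marker of kidney stress, was the most abundant of the 9 genes in every library. It had 800.1, 856 and 691 FPKM in Control, 1493, 1469 and 1339 FPKM in HN, and 943, 899 and 994 FPKM in PEC libraries. The groups did not overlap in FPKM, with HN the highest, but PEC and Control overlapped after TMM. The log2 fold change in PEC against Control was then -0.04 (SE 0.10, edgeR adjusted p = 0.762). After TMM the log2 fold change was 0.34 (SE 0.10, edgeR adjusted p = 0.02) in HN against Control and -0.39 (SE 0.10, edgeR adjusted p = 0.0134) in PEC against HN, so that the p passed and the fold change did not. With total-count scaling the rise in HN was 0.90 and called, and after removal of length and GC content the fall with PEC was -0.68 and called (limma adjusted p = 0.000758). Igfbp7 overlaps Polr2b and an antisense gene on the opposite strand, whose reads cannot be told apart without strand.

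Of 30 further factors secreted by senescent cells, 29 were tested, and 21 were called higher and 3 lower in HN against Control (17.7% and 14.7% of all tested genes). The median log2 fold change was 2.43, also with Il6 and Areg set to the bound that 3 counts in the Control group allow, beside -0.0008 over all tested genes. Il6 and Areg had 0 counts in all Control libraries and were at least 56.1-fold and 44.0-fold higher in HN. Spp1, which encodes osteopontin, was the most abundant, with 388, 428 and 355 FPKM in Control, 11399, 10202 and 10397 FPKM in HN, and 7834, 7994 and 6468 FPKM in PEC libraries. Its groups did not overlap, and its log2 fold change in HN against Control was 4.24 (SE 0.14, edgeR adjusted p = 7e-07). The protease inhibitor gene Timp1 and the chemokine gene Cxcl2 rose by 5.69 (SE 0.32) and 5.13 (SE 0.35) on the log2 scale. Vegfa, a growth factor of vessels, fell by 1.16 (SE 0.07), the binding protein gene Igfbp3 by 1.24 (SE 0.13) and the cytokine gene Mif by 0.70 (SE 0.13), a fall of 0.15 with total-count scaling.

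Between PEC and HN libraries, 1 of the 29 was called higher and 9 lower (13.4% and 15.3% of all tested genes), and the median was -0.48, beside -0.015 over all tested genes. After removal of length and GC content, 11 were lower, beside 2588 of 21358 genes, and the median was -0.84, beside -0.0076. Vegfa had 28.7 to 30.0 FPKM in Control, 17.7 to 20.6 in HN and 40.3 to 41.1 in PEC libraries, without overlap, and rose by a log2 fold change of 1.31 (SE 0.07, edgeR adjusted p = 1.01e-05) in PEC against HN. After TMM it was not called in PEC against Control. Hgf, a growth factor for tubular cells, had 0.86 to 1.09 FPKM in Control, 1.90 to 2.41 in HN and 0.13 to 0.15 in PEC libraries. It stood below Control with PEC, and fell by 3.73 (SE 0.18, edgeR adjusted p = 9.39e-06) on the log2 scale against HN. Thbs1 and Mmp3, which encode thrombospondin and stromelysin, fell by 1.81 (SE 0.18) and 1.5 (SE 0.24) in PEC against HN. In PEC against Control, 18 of the 29 were called higher and 3 lower (18.9% and 17.4% of all tested genes), with a median of 1.84.

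**Figure D4:**
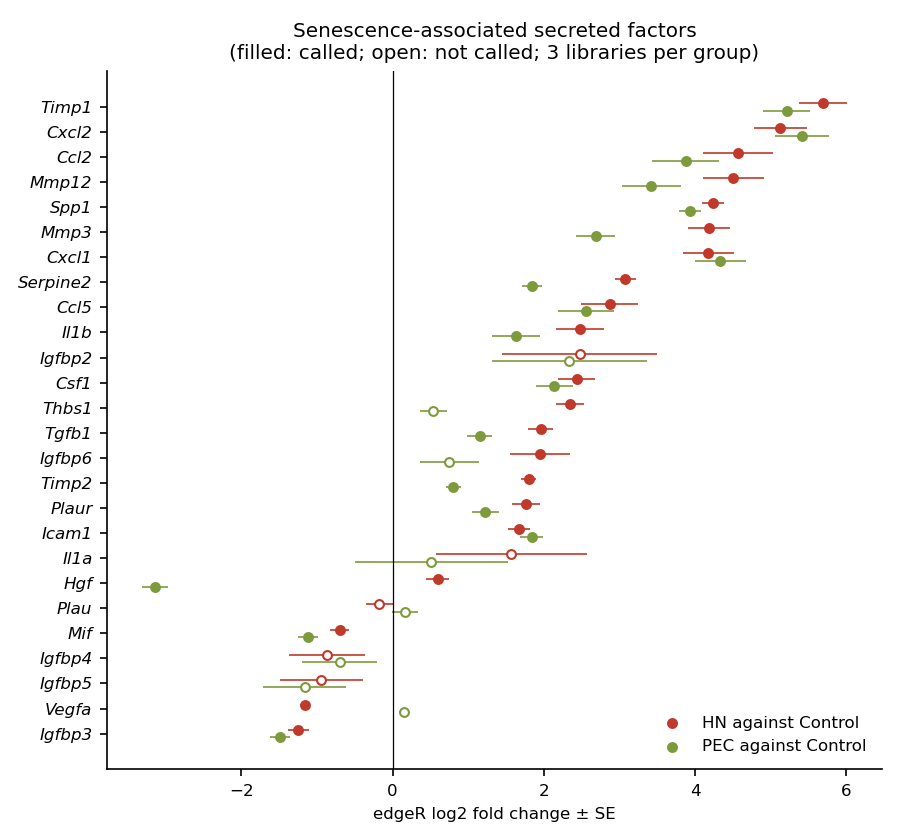
Log2 fold change with SE (horizontal axis) of tested secreted factors that had counts in Control, in HN against Control (red) and PEC against Control (green); filled points were called. Timp1, Cxcl2 and Spp1 stood high in both comparisons, whereas Hgf was at 0.59 in HN and at -3.14 in PEC against Control. The call of Hgf in HN against Control was lost without Control replicate 2 (0.50) or HN replicate 4 (0.48).

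Among 8 other genes tied to senescence, 3 were called higher and 2 lower in HN against Control (17.7% and 14.7% of all tested genes), with a median of 0.29. Gpnmb, a surface protein of senescent cells and of macrophages, rose by 4.90 (SE 0.49, edgeR adjusted p = 5.35e-05) on the log2 scale. Lmnb1, whose product lamin B1 is known to be lost in senescent cells, had 1.67, 1.81 and 1.44 FPKM in Control, 8.51, 9.18 and 9.40 FPKM in HN, and 4.10, 5.06 and 3.98 FPKM in PEC libraries. Its groups did not overlap, and HN was the highest, with a log2 fold change of 1.92 (SE 0.13, edgeR adjusted p = 6.29e-06). Glb1, the gene of the lysosomal galactosidase whose activity is stained in senescent cells, was called lower in HN at -0.91 (SE 0.15, edgeR adjusted p = 0.0011), and the lysosomal Fuca1, the most abundant, at -0.90 (SE 0.07). With total-count scaling both were at -0.35 and -0.34 and not called. With PEC, 1 of the 8 was called higher and 3 lower against HN (13.4% and 15.3% of all tested genes). Fuca1 was called higher against HN at 0.70 (SE 0.07), and Lmnb1, Gpnmb and Bmi1, a repressor of Cdkn2a, lower at -0.82 (SE 0.12), -1.37 (SE 0.41) and -0.68 (SE 0.08). Fuca1 and Bmi1 were not called there after removal of length and GC content (0.47 and -0.25), nor was Fuca1 with total-count scaling (0.50). Gpnmb was not called there without HN replicate 4 (edgeR adjusted p = 0.0553), HN replicate 8 (0.0864), PEC replicate 1 (0.0785) or PEC replicate 2 (0.0519).

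Markers of kidney cell types were present in the Control libraries, with a summed FPKM of 1061 to 1149 for 5 proximal tubule genes and 54.7 to 56.0 for 4 podocyte genes. Markers of other cell types differed between the groups as well. The 5 macrophage markers, Lyz2 and C1qa among them, summed to 35.7, 39.2 and 35.6 FPKM in Control, 904, 927 and 817 FPKM in HN, and 322, 330 and 428 FPKM in PEC libraries. All 5 were called higher in HN against Control (17.7% of all tested genes) and 4 lower in PEC against HN (15.3%). Proximal tubule markers summed to 343, 343 and 348 FPKM in HN and to 658, 770 and 465 FPKM in PEC libraries, and all 5 were called lower in HN against Control (14.7% of all tested genes) and higher in PEC against HN (13.4%). The 5 markers of injured tubules, Havcr1 and Lcn2 among them, summed to 2.89 to 6.16 FPKM in Control, 528 to 546 in HN and 323 to 370 in PEC libraries, with all 5 called higher in HN (17.7% of all tested genes) and 2 lower in PEC against HN (15.3%). Lcn2 was not among these 2, and in PEC replicate 3 it had 210 FPKM, above every HN library. The 5 markers of fibroblasts and pericytes, Acta2 and Col3a1 among them, summed to 33.9 to 38.8 FPKM in Control, 275 to 296 in HN and 141 to 167 in PEC libraries, with all 5 called higher in HN (17.7% of all tested genes) and 3 lower in PEC against HN (15.3%). After removal of length and GC content, 1 of them was lower in PEC against HN, beside 2588 of 21358 genes, and their median log2 fold change went from -0.74 to -0.17. In that fit 1 injured tubule marker and 3 macrophage markers were lower in PEC against HN. There, 4 proximal tubule markers were higher, beside 2697 of 21358 genes. T cell markers summed to 1.47 to 2.6 FPKM in Control, 11.9 to 21.4 in HN and 8.04 to 10.4 in PEC libraries. In these lists no gene was at 0 in any library. In bulk tissue, more cells of a type and more RNA per cell cannot be told apart, and the part of these cell types in the changes of Cdkn2a, Cdkn2b, Gdf15, Igfbp7 and the secreted factors was not tested.

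**Figure D5:**
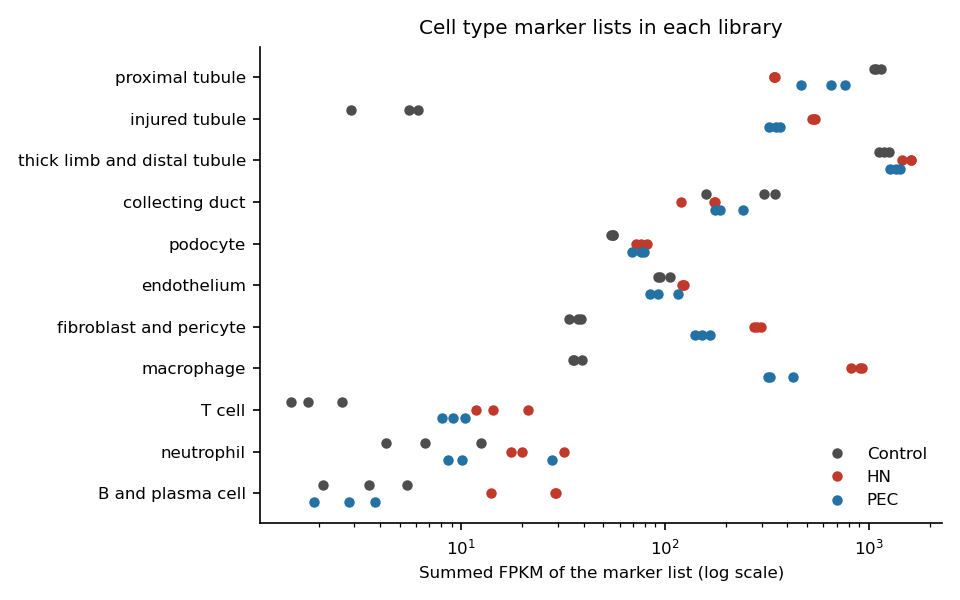
Summed FPKM (horizontal log axis) of 11 marker lists in each Control, HN and PEC library. Macrophage, fibroblast and injured tubule markers lie lowest in Control and highest in HN libraries, and proximal tubule markers lie highest in Control.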

How the data were processed

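The deposited counts are raw, unscaled whole numbers for each gene, as given by the authors. The FPKM values were made by the authors from counts, gene length and library total, and were used as deposited. The submitters' notes name Bowtie 0.12.2 and the builds mm8 and mm9, while the coordinates of the table are those of GRCm38. The counting program, the strand used and the test are not given in the sources used here. Tests were run in R 4.3.3 with edgeR 4.0.16 (TMM, filterByExpr, glmQLFit and glmQLFTest) on the counts, with the 9 libraries in one fit, and were tried on simulated data first. The first of these trials stopped at a demand for recovered genes that was too high for genes of low count, and the demand was lowered. DESeq2 1.42.0 and limma 3.58.1 were alternatives. SE is the absolute log2 fold change over the square root of F. Length and GC content were removed from log2 CPM in each library by splines (5 degrees of freedom) before limma. Of each list, the most abundant gene and up to 4 genes per direction with the largest called fold changes were eligible to be named. The 9 genes and the lists were chosen with earlier results of these data known.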

Additional observations from a re-analysis of the deposited data

How the results depend on the processing

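There were 23 alternatives, of which limma on log2 CPM without the spline was chosen after seeing the data. No paired analysis was run, because the study assigned its mice to the groups at random, so that a shared replicate number does not mark a pair. Differences between scalings follow by construction from the reference level each sets. The cause of the other differences was not tested.

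In HN against Control, 5906 genes were called higher with limma on log2(FPKM + 0.1) and 7708 with total-count scaling, against 3777. Lower genes numbered 1191 with log2(FPKM + 0.1), 1024 with log2(FPKM + 1), 1286 with total-count scaling and 1902 at a fold change of 2, against 3154. In PEC against HN, higher genes numbered 1683 with log2(FPKM + 0.1), 1356 with log2(FPKM + 1) and 1771 at a fold change of 2, against 2875, and lower genes 1823 at a fold change of 2, against 3266. In PEC against Control, 6415 were higher with total-count scaling, against 4053. Lower genes numbered 1919 with log2(FPKM + 0.1), 1485 with log2(FPKM + 1), 1960 with total-count scaling and 2089 at a fold change of 2, against 3731. Left-out libraries gave 3341 to 3852 higher and 2802 to 3236 lower in HN against Control, 2383 to 2920 and 2763 to 3340 in PEC against HN, and 3669 to 3910 and 3414 to 3688 in PEC against Control.

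Of the 9 genes, 7 were higher in HN than in Control with total-count scaling (7708 of all 21392 tested genes) and 2 at a fold change of 2 (2939 of all), against 4. In HN against Control, 1 was lower by adjusted p with no fold change, against 0 (4425 of all). Between PEC and HN, 5 were lower by adjusted p with no fold change, against 3 (4399 of all). Between PEC and Control, 2 were higher with DESeq2 (4595 of all), length and GC removed (4161), limma on log2 CPM (4324), total-count scaling (6415) or an unadjusted p (4615), against 1, and 2 were lower with length and GC removed (3411), against 1. Left-out libraries gave 3 to 4 higher and 0 to 1 lower in HN against Control, 0 and 1 to 4 in PEC against HN, and 1 to 2 and 1 to 2 in PEC against Control.

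Some log2 fold changes turned sign. For log2(FPKM + 0.1), log2(FPKM + 1) and total-count scaling in this order, Trp53 in PEC against HN was at -0.0435, -0.0411 and -0.0264, against 0.17. Mdm2 was at 0.33, 0.29 and 0.36 in HN against Control, against -0.20, at -0.0657, -0.0598 and -0.0497 in PEC against HN, against 0.15, and at 0.26, 0.23 and 0.31 in PEC against Control, against -0.05. Ccng1 in HN against Control was at 0.0269, 0.0263 and 0.0414, against -0.52. Cdkn1b in PEC against Control was at 0.17, 0.15 and 0.21, against -0.15, and Igfbp7 at 0.28, 0.28 and 0.32, against -0.04. With a mean FPKM of at least 0.5 as filter, Mdm2 in PEC against Control was at 0.0034 and Igfbp7 at 0.0156. With length and GC removed, Cdkn1b was at 0.20 in PEC against HN, against -0.24, and at 0.24 in PEC against Control, and Cdkn1a in PEC against Control was at -0.11, against 0.0009. With no filter on low counts that Cdkn1a value was -0.0048. Left-out libraries gave -0.39 to 0.38 for Cdkn1a, -0.10 to 0.66 for Gdf15 and -0.10 to 0.0099 for Igfbp7 in PEC against Control.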

Other observations

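Over the 9 libraries, the genes whose level followed Cdkn1a most closely were Eif2ak4, a kinase gene of the integrated stress response (Pearson r = 0.978 of log2 CPM), Btg3 (0.969), an antiproliferative gene, Tent5b (0.964), Mmp19 (0.956) and Lrrc32 (0.953). Like Cdkn1a, all 5 had their lowest FPKM in Control replicate 5 and were higher in every HN than in every PEC library. Those nearest to Gdf15 were Asap1 (0.985), Gm14322 (0.969), the channel gene Hcn4 (0.962), Samsn1 (0.953) and C5ar1 (0.952), the gene of a complement receptor on myeloid cells. C5ar1 had 0.43, 0.64 and 0.54 FPKM in the Control libraries, 7.17, 4.82 and 5.22 FPKM in the HN libraries, and 0.33, 2.19 and 2.21 FPKM in PEC replicates 1, 2 and 3. PEC replicate 1 was the lowest PEC library in C5ar1 as in Gdf15. These correlations hold the differences between groups and were picked as the highest of all tested genes, so that no p is given.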
